A study of Mus musculus with 32 samples.

Results

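The retina of the rd1 mouse was followed over the interval from postnatal day (P) 4 to P6, to ask which developmental rises and falls in transcript level occurred in the mutant and how large they were. Retinas of rd1 pups at P6 were compared to retinas of rd1 pups at P4 on 4 arrays each, 8 of the 32 arrays of the series. The other arrays held rd1 retinas at P2 and P8 and wild type (wt) retinas at the same 4 ages. Each array was a separate sample of 8 to 14 pooled retinas, and all probe sets other than array controls entered the comparison. Mice of both rd1 groups were homozygous for 2 linked mutations on a C57BL/6 background, retinal degeneration 1 (rd1) in Pde6b and light ear (le), so effects of le cannot be told apart from those of rd1. The wt mice carried the wt allele at both loci. Whether the 4 samples of a group came from separate litters is not given, so p-values measure only the spread between these samples. Levels are given as log2 values, where a difference of 1 is a 2-fold change, and every difference is P6 minus P4.

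The postnatal mouse retina completes its neurogenesis in the days after birth. The last progenitors, which are also the source of Mueller glia, divide at the outer margin of the neuroblastic layer and leave the cell cycle, with rods, bipolar cells and Mueller glia as their late products. Rods then switch on the proteins of the phototransduction cascade, in which rhodopsin activates transducin, transducin activates the cGMP phosphodiesterase, and the fall in cGMP closes cation channels of the outer segment. In rd1 mice the beta subunit of that phosphodiesterase is lost, cGMP accumulates, and rods die later, after the ages compared here. In whole retinas, fewer cells of a type and less RNA per cell cannot be told apart.

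Pde6b, the gene that carries the rd1 mutation, was at 10.52, 10.92, 10.68 and 10.65 in rd1 retinas at P6, against 8.65, 9.19, 9.80 and 9.55 at P4. The groups did not overlap and the difference was 1.39 ± 0.49 (SE), but it did not pass the test across all probe sets (limma, adjusted p = 0.0861). By an exact permutation test (two-sided, 70 ways to split these 8 arrays) p was 0.0286, the smallest value it can give. Where in the Pde6b transcript the probes lie was not analysed here.

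On the 8 arrays the medians lay between 6.54 and 6.72, arrays correlated at 0.986 to 0.997 within P6 and at 0.993 to 0.997 within P4, and at 0.978 to 0.995 between the ages. Probe sets for Bacillus transcripts read 1.98 to 4.73 and are taken as the range of background, since the size of a difference is uncertain where a group mean lies within it. One array stood apart. P4 replicate 1 gave 4.69 for Xist, the RNA of the inactive X chromosome, against 11.08 to 12.36 on the other 7 arrays. It also had the highest level of Eif2s3y, a gene of the Y chromosome, at 9.81, against 7.50 to 8.89. The labels do not give the sex of the pups, and the part of sex in the results was not tested. P4 replicate 1 also had the highest mean of mitosis genes and the lowest mean of rod genes among the P4 arrays. For gene lists with at least 3 calls in a direction whose count moved by over 1.5 times without it, the count without it stands beside the main one. Smaller counts rest on single genes, whose refits are given with them. The 18S ribosomal RNA control read 4.61, 7.17, 9.80 and 9.53 at P6 and 4.65, 9.72, 6.78 and 7.17 at P4, and its part in the results was not tested beyond a fit with it as a covariate.

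Falls outnumbered rises between P4 and P6. Of 22626 probe sets, 494 (2.18%) were higher and 1110 (4.91%) were lower at P6 at an adjusted p under 0.05 (limma, Benjamini-Hochberg adjustment). By genes, each represented by its brightest probe set, 312 of 12403 (2.52%) were higher and 734 (5.92%) were lower. Changes of at least 2-fold among the calls numbered 92 higher (0.407%) and 272 lower (1.2%). The split depended on the scaling. Rises made up 30.8% of the calls on the values as deposited, 55.3% (915 higher, 739 lower) after each array was centred on its median, and 44.3% (658 higher, 828 lower) after a further quantile normalization. Centring moved the median of all genes up by 0.09, and among changes of at least 2-fold falls were more numerous under each scaling, with 115 higher and 217 lower after centring and 102 higher and 230 lower after quantile normalization. Without P4 replicate 1 the calls numbered 279 higher and 641 lower, without P6 replicate 3 they numbered 324 and 725, without P6 replicate 4 they numbered 344 and 704, and without P6 replicate 1 they numbered 760 and 1410. By genes the calls without P4 replicate 1 numbered 173 higher and 438 lower. The 4 P6 arrays lay entirely above the 4 P4 arrays for 1112 probe sets (4.91%) and entirely below them for 1773 (7.84%), and 1360 of the calls were among these.

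The largest single changes were a fall of Uhrf1 and rises of Otor and Gsg1. Uhrf1, which keeps DNA methylation through replication, was at 4.15, 3.56, 4.38 and 4.75 at P6, against 8.51, 7.16, 6.83 and 7.63 at P4. The groups lay far apart, with a difference of -3.32 ± 0.35 (SE; limma, adjusted p = 1.34e-06), of uncertain size because the P6 mean lay within the range of background. Its other probe set gave -1.63 and did not pass the test (adjusted p = 0.0638). Otor, which encodes the secreted protein otoraplin, had the largest rise, with 8.18, 8.79, 7.94 and 8.14 at P6, against 2.05, 2.70, 5.58 and 4.62 at P4. Every P6 array was above every P4 array (4.53 ± 0.63, adjusted p = 3.61e-05), and P4 replicates 1, 2 and 4 were at the level of background. Gsg1, a gene first described in male germ cells, was at 7.63, 8.49, 7.52 and 7.65 at P6, against 2.55, 3.23, 4.81 and 3.95 at P4 (4.19 ± 0.44, adjusted p = 1.34e-06). Its P4 values also reached background, so the rises of both genes were clear in direction and uncertain in size.

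**Figure D1:**
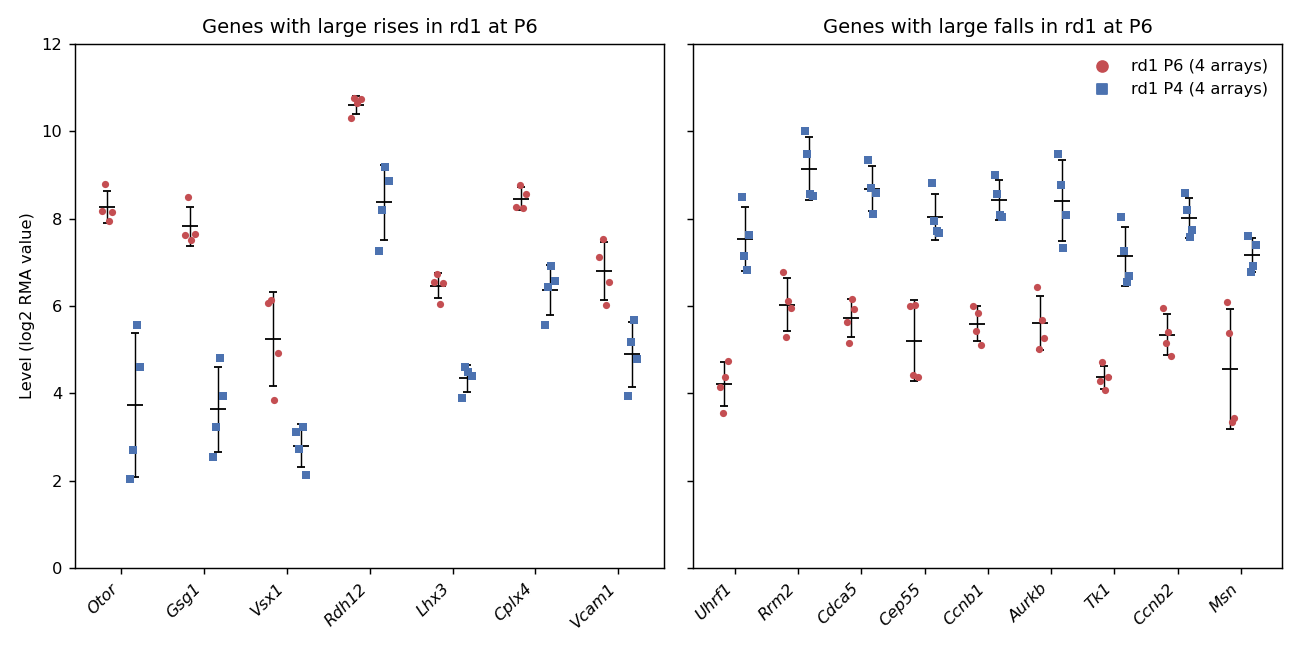
Log2 levels of genes with large rises (left) and large falls (right) on each of the 4 rd1 arrays at P6 (circles) and the 4 rd1 arrays at P4 (squares), with the mean and SD. The P6 and P4 points of each gene do not overlap.

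Mitosis genes fell as a group. Of 68 measured genes of mitosis and chromosome segregation, 60 were lower at P6 and 0 were higher (88.2% lower, against 5.92% of all genes), and the median difference was -1.64, against 0.06 over all genes. All 68 differences were below 0. The mean level of the list was 6.85, 6.50, 7.13 and 6.91 on the P6 arrays, against 9.05, 8.42, 8.07 and 8.28 on the P4 arrays, with no overlap. Without P4 replicate 1 the count was 53 and the median -1.46.

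Ccnb1 encodes cyclin B1, the partner of the kinase that starts mitosis. It was at 6.01, 5.44, 5.85 and 5.11 at P6, against 9.01, 8.57, 8.08 and 8.03 at P4 (-2.82 ± 0.34, adjusted p = 5.35e-06). Ccnb2, which encodes cyclin B2, was at 5.96, 5.15, 5.40 and 4.86 at P6, against 8.59, 8.20, 7.57 and 7.74 at P4 (-2.68 ± 0.36, adjusted p = 2.76e-05). For both cyclins the highest P6 array was more than 1 log2 unit below the lowest P4 array. Aurkb, the kinase of the chromosomal passenger complex that corrects spindle attachments, fell by 2.81 on the log2 scale (adjusted p = 1.62e-05). Cdca5, which encodes sororin, a protein that protects sister chromatid cohesion, fell by 2.96 (adjusted p = 3.99e-06). Cep55, needed for the final cut between daughter cells, fell by 2.83 (adjusted p = 2.39e-05), while its other, dimmer probe set gave -1.27 (adjusted p = 0.077). Racgap1, a regulator of the contractile ring, was at 8.27, 7.55, 7.27 and 6.46 at P6, against 10.46, 9.88, 9.45 and 9.80 at P4 (-2.51 ± 0.29, adjusted p = 3.99e-06). Its levels were above the range of background at both ages. Cenpa, the histone H3 variant of the centromere, was at 6.72, 7.11, 7.36 and 6.69 at P6, against 9.73, 9.05, 8.79 and 8.92 at P4 (-2.15 ± 0.23, adjusted p = 1.93e-06). Melk, a kinase of dividing cells, fell by 2.27 (adjusted p = 8.65e-06).

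The 8 genes of the list that did not pass the test were Bub3, Cenpe, Cenph, Kif22, Top2a, Pttg1, Hmmr and Stmn1. Top2a, which encodes the topoisomerase that untangles chromosomes, was at 8.35, 7.81, 8.82 and 8.71 at P6, against 10.54, 10.16, 9.43 and 9.77 at P4. Its groups did not overlap either, and its difference was -1.55 ± 0.54 (adjusted p = 0.0837). Stmn1, which encodes stathmin, a microtubule regulator that young neurons also express, was at 12.81 to 13.06 at P6 and 13.04 to 13.21 at P4 (-0.20, adjusted p = 0.202). Apart from Stmn1, these 8 genes were named after their values were seen.

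Promoters of 3 fallen mitosis genes are shown because they hold both letter runs found in cell cycle promoters, CCAAT (the box bound by NF-Y) and TTTGAA (the cell cycle homology region). Each is 140 bases, 118 before and 22 from the annotated start, taken from RefSeq on GRCm38.p6 and written 5′ to 3′ on the gene's strand, with matches on either strand in capitals (ATTGG is CCAAT read on the other strand). They lie at chr9:70421533-70421672, minus strand, for Ccnb2, at chr4:118437322-118437461, minus strand, for Cdc20, and at chr5:30666768-30666907, plus strand, for Cenpa.
Ccnb2: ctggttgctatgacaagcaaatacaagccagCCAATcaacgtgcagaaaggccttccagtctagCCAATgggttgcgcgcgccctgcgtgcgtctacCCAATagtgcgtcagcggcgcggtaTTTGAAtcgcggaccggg
Cdc20: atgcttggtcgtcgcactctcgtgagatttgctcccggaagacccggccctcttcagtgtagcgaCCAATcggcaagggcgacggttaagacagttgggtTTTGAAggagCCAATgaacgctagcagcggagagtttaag
Cenpa: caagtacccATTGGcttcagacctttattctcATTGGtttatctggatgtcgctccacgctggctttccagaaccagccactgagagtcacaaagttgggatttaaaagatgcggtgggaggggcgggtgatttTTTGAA

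Cdc20 encodes an activator of the ubiquitin ligase that ends mitosis, and it was chosen for its promoter after its values were seen. It was at 8.06, 7.86, 8.56 and 8.38 at P6, against 10.57, 10.32, 9.72 and 9.96 at P4 (-1.93 ± 0.27, adjusted p = 4.22e-05). Of the 60 fallen mitosis genes, 49 matched a RefSeq promoter by symbol, with 53 promoters in all, each searched over 250 bases before and 50 after the start. TTTGAA was in 60.4% of them (32 of 53), against 12.9% of the promoters of measured genes and 17.9% of all RefSeq promoters given. CCAAT was in 75.5% (40 of 53), against 37.1% of promoters of measured genes and 37.4% of all promoters. These shares describe letters in a window and not bound sites.

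DNA replication genes fell too. Of 60 measured genes of DNA replication and S phase, 37 were lower and 0 were higher (61.7%, against 5.92% of all genes), with a median of -0.74. The mean level of the list was 7.34, 7.23, 7.40 and 7.30 at P6, against 8.61, 8.22, 7.93 and 8.11 at P4, again with no overlap. Without P4 replicate 1 the count was 23 and the median -0.60. Mcm6, a subunit of the helicase that opens DNA ahead of the replication fork, was at 8.87, 8.79, 9.04 and 8.56 at P6, against 10.77, 10.49, 9.94 and 10.33 at P4 (-1.57 ± 0.18, adjusted p = 3.99e-06). Gmnn, which encodes geminin, the inhibitor that keeps origins from firing again, was at 7.44, 7.54, 7.77 and 7.10 at P6, against 9.74, 8.92, 8.67 and 8.86 at P4 (-1.58 ± 0.20, adjusted p = 8.65e-06). Neither gene had overlapping groups. Pcna, the sliding clamp of DNA polymerases, fell by 0.67 (adjusted p = 0.00102), at 11.78 to 12.02 at P6 and 12.33 to 12.89 at P4. Enzymes of deoxynucleotide supply were also lower. Tk1, thymidine kinase, was at 4.29, 4.71, 4.08 and 4.38 at P6, against 8.04, 7.25, 6.56 and 6.70 at P4 (-2.77 ± 0.33, adjusted p = 5.16e-06), with its P6 values at background. Rrm2, the small subunit of ribonucleotide reductase, fell by 3.11 on 1 probe set (adjusted p = 3.94e-06) and by 2.44 on its brightest one (adjusted p = 0.000624).

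The promoter of Mcm6, at chr1:128359684-128359823 on the minus strand (RefSeq, GRCm38.p6), is shown because it carries a pair of TTGGCGC matches, an E2F site found in S phase promoters, beside the CCAAT box. Capitals mark TTGGCGC and CCAAT on either strand.
Mcm6: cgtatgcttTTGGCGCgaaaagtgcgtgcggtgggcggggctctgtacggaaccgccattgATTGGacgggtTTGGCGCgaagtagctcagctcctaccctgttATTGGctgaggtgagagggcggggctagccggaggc

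Among 37 promoters of fallen replication genes, TTGGCGC was in 27.0% (10 of 37), against 3.91% for measured genes and 2.45% for all promoters. TTCCCGC, another E2F site, was in 27.0% (10 of 37), against 7.0% for measured genes and 4.6% for all promoters. The letters ATTGG and TTGGCGC can overlap.

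Genes of retinal progenitors fell with the cell cycle genes. Of 35 measured, 23 were lower and 0 were higher (65.7%, against 5.92% of all genes), with a median of -0.90. The mean level was 8.82, 8.48, 8.51 and 8.49 at P6, against 9.70, 9.40, 9.26 and 9.31 at P4. The groups did not overlap, and without P4 replicate 1 the count was 16 and the median -0.80. Lhx2, a LIM homeobox factor of the optic primordium and of progenitors, was at 9.94, 9.56, 9.18 and 9.35 at P6, against 10.96, 10.96, 10.56 and 10.80 at P4 (-1.31 ± 0.17, adjusted p = 1.96e-05). Sox2, an HMG-box factor that keeps progenitors competent, was at 10.01, 9.44, 9.24 and 9.19 at P6, against 11.02, 10.23, 10.56 and 10.61 at P4 (-1.13 ± 0.16, adjusted p = 5.74e-05). Both remained far above the range of background at P6. Fgf15, a growth factor of the progenitor zone, was at 4.52, 3.50, 3.57 and 4.38 at P6, against 6.78, 6.06, 5.88 and 6.02 at P4 (-2.19 ± 0.34, adjusted p = 0.00012), and its P6 values were at background. Six6, an eye-field homeobox factor, fell by 0.90 (adjusted p = 0.000356). Ccnd1, which encodes cyclin D1, the main D-type cyclin of the retina, fell by 1.64 (adjusted p = 0.00142) and was still at 10.58 to 11.07 at P6, against 12.01 to 12.88 at P4. Another Ccnd1 probe set gave -1.39 (adjusted p = 0.00151). A further one, also bright, gave -0.76 and did not pass the test (adjusted p = 0.125).

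In the Notch pathway, where ligands on young neurons keep neighbouring progenitors undifferentiated, both a ligand and a target fell. These genes were named after their values were seen. Dll1, the ligand, was at 9.25, 9.30, 9.42 and 9.32 at P6, against 10.35, 9.93, 9.93 and 10.27 at P4 (-0.80 ± 0.21, adjusted p = 0.0185). Its call was lost without P4 replicate 1 and without P4 replicate 4, with adjusted p up to 0.0772. Hes1, the target and a repressor of neuronal genes, was at 7.01, 6.32, 6.50 and 6.96 at P6, against 8.68, 8.24, 7.93 and 7.99 at P4 (-1.51 ± 0.26, adjusted p = 0.000399). Sox4 and Btg2, members of the list that newborn neurons also express, did not pass the test. Their differences were -0.05 for Sox4 (adjusted p = 0.814) and 0.07 for Btg2 (adjusted p = 0.806).

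Most genes of amacrine, horizontal and ganglion cells did not pass the test, and those that did went both ways. Ptf1a, the factor that directs precursors to amacrine and horizontal fates, was at 5.63, 4.80, 5.67 and 5.90 at P6, against 7.79, 7.12, 7.11 and 7.71 at P4 (-1.93 ± 0.32, adjusted p = 0.000208). No P6 array reached the lowest P4 array. Tfap2a, a factor of amacrine cells, fell by 0.93 (adjusted p = 0.000256), and Tcf4, a bHLH factor with wide neuronal expression, fell by 0.52 on its brightest probe set (adjusted p = 0.00311). Another Tcf4 probe set gave -0.45 (adjusted p = 0.0341), and the rest did not pass the test, at -0.30, -0.06, -0.04 and -0.001. Calb1, which encodes the calcium buffer calbindin of horizontal and amacrine cells, changed the other way, with 7.61, 7.77, 7.66 and 7.57 at P6, against 6.58, 6.37, 6.66 and 6.64 at P4 (1.09 ± 0.24, adjusted p = 0.00382). Of 30 measured amacrine and horizontal genes, 2 were higher (6.67%, against 2.52% of all genes) and 5 were lower (16.7%, against 5.92%), with a median of -0.07 as deposited and 0.02 after centring. The counts were 1 and 4 without P4 replicate 1, P6 replicate 3 or P6 replicate 4, 1 and 5 without P4 replicate 4, 1 and 6 without P4 replicate 3 or P6 replicate 1, and 2 and 3 after centring. Of 37 ganglion cell genes, 3 were higher (8.11%, against 2.52% of all genes) and 3 were lower (8.11%, against 5.92%), with a median of 0.01. After centring these counts were 7 and 3, without P6 replicate 1 they were 4 and 6, without P4 replicate 1 they were 3 and 2, and without P4 replicate 2 or P6 replicate 3 they were 2 and 2. Their calls were mixed in kind. Chrna6, an acetylcholine receptor subunit, rose by 0.77 (adjusted p = 0.00551), and Elavl3, an RNA-binding protein of young neurons, fell by 0.52 (adjusted p = 0.00545). Atoh7, the bHLH factor that makes precursors competent for the ganglion cell fate, was at 3.84, 3.84, 4.60 and 4.59 at P6, against 6.81, 5.25, 5.12 and 4.79 at P4 (-1.27 ± 0.33, adjusted p = 0.0167). Its P6 values were at background, and its call was lost without P4 replicate 1 and without P6 replicate 2, with adjusted p up to 0.114. Isl1, counted among the ganglion cell rises, is a bipolar cell gene as well.

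Rod genes rose as a group. Of 32 measured genes of rod phototransduction and the outer segment, 22 were higher and 0 were lower at P6 (68.8%, against 2.52% of all genes), all 32 differences were above 0, and the median was 0.96. The mean level of the list was 9.90, 10.10, 9.90 and 9.84 at P6, against 8.44, 8.83, 9.30 and 9.13 at P4, with no overlap. Without P4 replicate 1 the count was 14 and the median 0.80. Sag encodes rod arrestin, which stops activated rhodopsin. It was at 13.32, 13.45, 13.49 and 13.73 at P6, against 12.17, 12.48, 12.66 and 12.53 at P4 (1.04 ± 0.13, adjusted p = 9.36e-06). Pde6g encodes the inhibitory gamma subunit of the same phosphodiesterase that rd1 affects. It was at 12.65, 12.96, 12.82 and 12.63 at P6, against 10.96, 11.18, 11.77 and 11.58 at P4 (1.39 ± 0.20, adjusted p = 4.51e-05). Its difference equalled that of Pde6b to 2 decimals, with a standard error of 0.20 for Pde6g and 0.49 for Pde6b. Rdh12, a retinol dehydrogenase of the photoreceptor inner segment, was at 10.30, 10.76, 10.64 and 10.73 at P6, against 7.26, 8.20, 9.19 and 8.85 at P4 (2.23 ± 0.32, adjusted p = 6.44e-05). Rdh12 had more than 1 log2 unit between the lowest P6 array and the highest P4 array. Pdc encodes phosducin, which binds transducin subunits. It rose by 0.53 (adjusted p = 0.0312), and its call was lost without P4 replicates 1 or 2 or P6 replicates 2 or 3, with adjusted p up to 0.112.

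The cGMP-gated channel and the calcium sensor of the cascade were named after their values were seen. Cnga1, the channel's alpha subunit, was at 10.19, 10.68, 10.30 and 10.32 at P6, against 7.83, 8.32, 9.18 and 8.71 at P4 (1.86 ± 0.30, adjusted p = 0.000205). Cngb1, its beta subunit, was at 11.22, 11.49, 10.99 and 10.59 at P6, against 9.13, 9.61, 10.34 and 10.15 at P4 (1.26 ± 0.24, adjusted p = 0.00102). Both subunits of the channel were thus higher on every P6 array. Rcvrn, which encodes recoverin, the calcium-binding inhibitor of rhodopsin kinase, rose by 1.52 (adjusted p = 0.00224). Gnat1, the rod transducin alpha subunit, was at 8.46, 8.39, 8.33 and 8.00 at P6, against 5.76, 6.39, 7.36 and 7.34 at P4. Its groups did not overlap, and 1.58 ± 0.55 did not pass the test (adjusted p = 0.0773). Prph2, the tetraspanin of the disc rim, was at 7.02, 5.77, 5.88 and 6.54 at P6, against 3.55, 5.85, 6.21 and 6.04 at P4 (0.89 ± 0.69, adjusted p = 0.409). Here the groups overlapped and only P4 replicate 1 was low.

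The promoters of Sag, at chr1:87803562-87803701 on the plus strand, and of Cngb1, at chr8:95306564-95306703 on the minus strand (RefSeq, GRCm38.p6), are shown because they hold TAATCC, the core of the site bound by the photoreceptor factor CRX. Capitals mark TAATCC on either strand (GGATTA on the other strand).
Sag: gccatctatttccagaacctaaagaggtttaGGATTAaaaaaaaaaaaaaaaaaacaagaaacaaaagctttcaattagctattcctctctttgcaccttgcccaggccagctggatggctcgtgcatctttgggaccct
Cngb1: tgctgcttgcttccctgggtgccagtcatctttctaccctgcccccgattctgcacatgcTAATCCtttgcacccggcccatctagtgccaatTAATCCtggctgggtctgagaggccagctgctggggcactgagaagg

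Of the 22 risen rod genes, 15 matched a RefSeq promoter, with 18 promoters in all. TAATCC was in 44.4% of them (8 of 18), against 5.89% for measured genes and 7.06% for all promoters. CACCTG, an E box, was in 27.8% of the same promoters (5 of 18), against 19.3% for measured genes and 20.2% for all promoters. Over the promoters of all risen genes, TAATCC was in 8.68% and CACCTG in 20.4%.

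Factors that direct the photoreceptor program had small differences. Of 14 measured photoreceptor transcription factors, 2 were higher (14.3%, against 2.52% of all genes) and 0 were lower, with a median of 0.20. The count was 0 without P4 replicate 1, P6 replicate 2 or P6 replicate 4, 1 without P6 replicates 1 or 3, and 3 after centring. Nrl, the leucine zipper factor that sets the rod fate, was at 13.15, 13.37, 13.35 and 13.38 at P6, against 12.53, 12.95, 13.06 and 13.05 at P4 (0.41 ± 0.11, adjusted p = 0.024). Rora, a nuclear receptor, rose by 0.56 (adjusted p = 0.0269). Both calls were small and were lost in 4 (Nrl) and 5 (Rora) of the 8 fits that each left out 1 array, P4 replicate 1 and P6 replicates 2 and 4 among them for both, with adjusted p up to 0.149 for Nrl and 0.108 for Rora. Crx, the homeobox factor shared by rods and cones, was at 12.86 to 13.13 at P6 and 12.15 to 12.86 at P4 (0.42, adjusted p = 0.057). Neurod1 differed by 0.16 (adjusted p = 0.394) and Otx2, which starts the photoreceptor and bipolar programs, by -0.13 (adjusted p = 0.4).

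Cone genes rose as well. Of 10 measured, 5 were higher (50%, against 2.52% of all genes) and 0 were lower, with all differences above 0 and a median of 0.49. The mean level of the list was 8.09, 8.29, 8.17 and 8.16 at P6, against 7.40, 7.38, 7.68 and 7.68 at P4. Arr3, cone arrestin, was at 7.48, 7.88, 7.14 and 7.35 at P6, against 6.08, 5.42, 5.99 and 6.41 at P4 (1.48 ± 0.22, adjusted p = 7.05e-05). Pde6c, the catalytic subunit of the cone phosphodiesterase, was at 8.16, 8.27, 8.54 and 8.71 at P6, against 7.11, 7.43, 7.46 and 7.09 at P4 (1.15 ± 0.17, adjusted p = 6.47e-05). Neither gene had overlapping groups. The subunits of cone transducin rose by less, with 0.52 for Gnat2 (adjusted p = 0.00227) and 0.61 for Gnb3 (adjusted p = 0.0046), which rod bipolar and other ON bipolar cells also express. Opn1sw, the short-wavelength opsin, was at 11.26 to 11.56 at P6 and 11.00 to 11.16 at P4, a difference of 0.31 that did not pass the test (adjusted p = 0.237).

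Of 20 measured genes of the photoreceptor cilium and its transport, 4 were higher (20%, against 2.52% of all genes) and 1 was lower (5.0%, against 5.92%), with a median of 0.10. Cep290, a gate protein of the connecting cilium, was at 9.64, 9.42, 8.83 and 9.24 at P6, against 7.97, 8.23, 8.67 and 8.34 at P4 (0.98 ± 0.21, adjusted p = 0.00317). Mak, a kinase that limits cilium length, rose by 0.73 (adjusted p = 0.00216), and Bbs9, a subunit of the BBSome cargo adaptor, rose by 0.55 (adjusted p = 0.00788). The gene that fell was Nek2, a centrosome kinase of dividing cells (-0.79, adjusted p = 0.00836), at background at P6 and also counted among the mitosis genes.

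Bipolar cells, born among the last neurons, had rises in some genes and not in others. Of 24 measured genes, 6 were higher (25%, against 2.52% of all genes) and 1 was lower (4.17%, against 5.92%), with a median of 0.39. The mean level was 6.86, 7.02, 6.80 and 6.98 at P6, against 6.25, 6.46, 6.42 and 6.43 at P4. Isl1, a LIM homeobox factor of ON bipolar cells that cholinergic amacrine and ganglion cells also express, was at 10.45, 10.67, 10.12 and 10.24 at P6, against 8.76, 8.93, 9.25 and 8.93 at P4 (1.40 ± 0.16, adjusted p = 3.99e-06). Lhx3, another LIM homeobox factor, was at 6.56, 6.73, 6.06 and 6.53 at P6, against 3.90, 4.61, 4.48 and 4.41 at P4 (2.12 ± 0.33, adjusted p = 0.000112), and its other, dim probe set gave 0.45 (adjusted p = 0.268). Vsx1, a homeobox factor of cone bipolar cells, rose on both of its probe sets, by 2.44 (adjusted p = 0.000162) and by 1.57 on the brighter one (adjusted p = 0.000128). Scgn, the calcium sensor secretagogin of cone bipolar cells, was at 7.07, 7.89, 7.43 and 7.91 at P6, against 5.83, 5.95, 5.56 and 5.65 at P4 (1.83 ± 0.34, adjusted p = 0.000777), and was named after its values were seen. In all 4 genes the groups did not overlap, and the P4 means of Lhx3 and Vsx1 were within background, as was that of Gabrr1. Gabrr1, a subunit of the GABA receptor of bipolar terminals, was at 5.78, 5.53, 6.05 and 6.49 at P6, against 4.13, 4.58, 4.43 and 4.22 at P4 (1.62 ± 0.37, adjusted p = 0.00555). Irx5, an Iroquois factor of some OFF bipolar types, changed the other way, with 8.10, 7.89, 7.99 and 7.85 at P6, against 9.19, 9.17, 8.68 and 8.94 at P4 (-1.04 ± 0.19, adjusted p = 0.000658). Neurod4, a bHLH factor of bipolar precursors, differed by -0.06 (adjusted p = 0.834).

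At the synapse, 7 of 36 measured genes of vesicles and ribbon synapses were higher (19.4%, against 2.52% of all genes) and 0 were lower, with a median of 0.16, and the count was 4 without P4 replicate 1 and also without P6 replicate 4. Those named were mainly parts of the ribbon synapse of photoreceptors and bipolar cells. Stx3, the syntaxin of ribbon synapses, was at 12.52, 12.71, 12.63 and 12.57 at P6, against 11.37, 11.54, 12.12 and 11.87 at P4 (0.88 ± 0.14, adjusted p = 0.000131). Cplx4, the complexin that clamps fusion there, was at 8.27, 8.78, 8.24 and 8.56 at P6, against 5.58, 6.43, 6.91 and 6.57 at P4 (2.09 ± 0.35, adjusted p = 0.000244). Both had every P6 array above every P4 array. Cabp4, a calcium-binding regulator of the photoreceptor calcium channel, was at 6.78, 8.24, 6.74 and 6.72 at P6, against 5.24, 5.60, 5.80 and 5.53 at P4 (1.58 ± 0.38, adjusted p = 0.00881), with P6 replicate 2 well above the other P6 arrays. Unc13b, a vesicle priming factor, rose by 0.77 (adjusted p = 0.000285). Of 30 transmitter receptor subunits, 3 were higher (10.0%, against 2.52% of all genes) and 0 were lower, with a median of 0.10. They were Gabrr1, Chrna6 and Gria2, an AMPA receptor subunit that rose by 0.70 (adjusted p = 0.0207) and lost its call without P4 replicate 1 and without P6 replicates 2, 3 or 4 (adjusted p up to 0.1).

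Of 28 measured genes of Mueller glia, 0 were higher (against 2.52% of all genes) and 5 were lower (17.9%, against 5.92%), with a median of 0.04. One gene was higher after centring and without P6 replicate 1, and 3 were lower without P6 replicates 3 or 4. Glul, glutamine synthetase, which converts glutamate released by neurons, was at 10.55, 10.27, 9.91 and 10.45 at P6, against 11.47, 11.06, 11.14 and 11.21 at P4 (-0.92 ± 0.23, adjusted p = 0.0104), with an adjusted p of 0.0539 without P6 replicate 3. Dkk3, a secreted protein of the Dickkopf family, was at 10.53, 10.35, 10.16 and 9.58 at P6, against 11.14, 11.16, 11.04 and 11.13 at P4 (-0.96 ± 0.20, adjusted p = 0.00258). The groups of both genes did not overlap. Cdh11, a cadherin, fell by 0.69 (adjusted p = 6.42e-05), and Id3, an inhibitor of bHLH factors that is counted among the progenitor genes too, fell by 0.70 (adjusted p = 0.00789; 0.0548 without P6 replicate 4). Late progenitors express many of these genes.

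Genes of axon guidance and growth changed in both directions. Of 45 measured, 4 were higher (8.89%, against 2.52% of all genes) and 4 were lower (8.89%, against 5.92%), with a median of 0.01. The counts were 2 and 1 without P4 replicate 1, 2 and 4 without P4 replicate 2, 3 and 7 without P6 replicate 1, and 3 and 2 without P6 replicate 4. Sema4d, a membrane semaphorin, was at 8.37, 8.14, 8.04 and 8.12 at P6, against 9.41, 9.12, 8.93 and 9.04 at P4 (-0.96 ± 0.12, adjusted p = 1.29e-05). Slit2, a repellent ligand, and Robo1, a receptor of Slit proteins, moved in opposite directions. Slit2 was at 9.65, 9.87, 9.67 and 9.84 at P6, against 9.38, 9.32, 9.34 and 9.35 at P4 (0.41 ± 0.10, adjusted p = 0.00686). Robo1 was at 7.89, 7.02, 7.31 and 7.62 at P6, against 9.20, 8.30, 8.59 and 8.18 at P4 (-1.11 ± 0.28, adjusted p = 0.0114; 0.0753 without P4 replicate 1). Alcam, an adhesion molecule of growing axons, rose by 0.82 (adjusted p = 0.00625). Epha7, an ephrin receptor named after its values were seen, rose by 1.08 (adjusted p = 0.015), and its call was lost in 4 of the 8 fits that left out 1 array, those without P4 replicates 1 or 2 or P6 replicates 1 or 2 (adjusted p up to 0.075).

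Probe sets of a gene did not always give 1 value. Of the 101 genes named with a call, 49 had several probe sets, and for 32 of these at least 1 probe set did not pass the test. Vcam1, a cell adhesion molecule, rose by 1.92 (adjusted p = 0.00187) on 1 probe set. Another, with both means within background, rose by 1.04 (adjusted p = 0.039). The brightest probe set of Vcam1 gave 6.49, 6.59, 6.99 and 7.24 at P6, against 5.94, 6.64, 6.57 and 6.60 at P4, with overlap (0.39, adjusted p = 0.194). Msn, which encodes moesin, a link between membrane and actin, fell by 2.61 on a dim probe set (adjusted p = 0.0419), a call lost without any 1 of the 4 P4 arrays and without P6 replicates 3 or 4 (adjusted p up to 0.153). Its brightest probe set gave 8.77, 8.32, 8.14 and 8.43 at P6, against 9.74, 9.26, 9.29 and 9.22 at P4, with no overlap and a smaller fall of 0.96 (adjusted p = 9.63e-05).

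Markers of cells outside the neural retina made few calls. All 14 measured lens crystallins were above 0, against 7396 of 12403 over all genes. Their median was 1.03, and 0 passed the test (limma, and 0 also at an unadjusted p under 0.05). For 5 of them neither group mean was above the range of background. The mean level of the 14 was 5.48, 5.54, 4.91 and 6.70 at P6, against 4.41, 4.22, 4.89 and 5.23 at P4, and the groups overlapped. Without P6 replicate 4 the median was 0.61. Crygb, a lens gamma crystallin, was at 5.60, 5.68, 5.27 and 7.61 at P6, against 3.22, 3.28, 4.44 and 5.96 at P4 (1.81 ± 0.91, adjusted p = 0.233). Cryaa, the alpha A chaperone crystallin, differed by 1.64 (adjusted p = 0.318). The 9 other lens fibre genes had a median of 0.05 with 0 calls (limma; 0 also at an unadjusted p under 0.05). Of 15 retinal pigment epithelium genes 0 passed the test and 2 had an unadjusted p under 0.05, with a median of 0.25. Of 24 genes of microglia and macrophages 0 passed and 4 had an unadjusted p under 0.05, with a median of 0.17. Over all genes, 2.52% were called higher and 5.92% lower, and 3089 of 12403 had an unadjusted p under 0.05 (limma). In lists this small, counts of 0 lie close to these shares. Cst3, cystatin C, bright in the pigment epithelium and elsewhere, differed by 0.40 (adjusted p = 0.0598), and Cx3cr1, the fractalkine receptor of microglia, by 0.26 (adjusted p = 0.106). Of 13 red blood cell genes 1 was higher (7.69%, against 2.52% of all genes). This was Tfrc, the transferrin receptor of all iron-importing cells, at 10.70, 10.90, 11.00 and 10.76 at P6, against 10.47, 9.89, 10.19 and 9.86 at P4 (0.74 ± 0.15, adjusted p = 0.00222).

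Vessel genes had 2 higher (6.45%, against 2.52% of all genes) and 1 lower (3.23%, against 5.92%) of 31, with a median of 0.21. Without P4 replicate 1, P6 replicate 2 or P6 replicate 3 the count higher was 0, and it was 1 without P4 replicates 2 or 4 or P6 replicates 1 or 4. Rgs5, a pericyte marker, was at 10.60, 10.54, 10.49 and 10.76 at P6, against 8.70, 9.66, 9.78 and 9.42 at P4 (1.21 ± 0.37, adjusted p = 0.0432), with no overlap but a call that held in only 1 of the 8 fits that left out 1 array, that without P4 replicate 3 (adjusted p up to 0.178). The other, dimmer probe sets of Rgs5 gave 1.55 (adjusted p = 0.00034), 0.90 (adjusted p = 0.00132) and 0.93 (adjusted p = 0.221). Angpt2, a ligand of sprouting vessels, rose by 0.57 (adjusted p = 0.0293), a call lost without P4 replicate 1 or P6 replicates 2 or 3 (adjusted p up to 0.119). Slc2a1, the glucose transporter of endothelium and photoreceptors, fell by 0.37 (adjusted p = 0.00664). Of 13 astrocyte and optic nerve glia genes, 1 was higher (7.69%, against 2.52% of all genes) and 2 were lower (15.4%, against 5.92%). Olig2, the bHLH factor of the oligodendrocyte lineage and of some retinal progenitors, was at 5.97, 5.13, 3.94 and 5.34 at P6, against 7.30, 5.88, 6.62 and 7.21 at P4 (-1.66 ± 0.33, adjusted p = 0.00198), with overlap of 1 array. Cnp, which encodes a myelin enzyme, fell by 0.81 (adjusted p = 0.00101). S100b rose by 0.80 (adjusted p = 0.0488), a call lost in 5 of the 8 fits that left out 1 array. Of 34 mesenchymal, scleral and muscle genes 1 was higher and 1 was lower (2.94% each, against 2.52% and 5.92% of all genes). Foxd1, a forkhead factor of the temporal retina as well as of mesenchyme, was at 3.58, 3.11, 3.18 and 3.30 at P6, against 5.30, 4.83, 4.22 and 4.66 at P4 (-1.46 ± 0.25, adjusted p = 0.000357), at background at P6. Postn, periostin of connective tissue, rose by 0.85 (adjusted p = 0.0462), a call lost in 6 of the 8 fits. The part of these cell types in the other results was not tested.

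Of 63 respiratory chain genes, 2 were higher (3.17%, close to the 2.52% of all genes) and 0 were lower (against 5.92%), with a median of 0.05. They were Ndufs1, a core subunit of complex I (0.48, adjusted p = 0.00186), and Uqcrc2, a core subunit of complex III (0.37, adjusted p = 0.0227). In glycolysis 1 of 20 genes was higher (5.0%, against 2.52% of all genes) and 2 were lower (10.0%, against 5.92%). Eno2, the neuronal enolase, was at 10.51, 10.80, 10.34 and 10.01 at P6, against 9.57, 9.13, 9.83 and 9.77 at P4 (0.84 ± 0.21, adjusted p = 0.0125), and Hk2, the inducible hexokinase of photoreceptors, fell by 0.54 (adjusted p = 0.0355). The calls of Uqcrc2, Eno2 and Hk2 were lost in 4, 2 and 5 of the 8 fits that left out 1 array. Cholesterol synthesis genes had 0 higher and 2 lower (10.5%, against 5.92%) of 19, and a median of -0.29. Sqle, squalene epoxidase, was at 9.11, 8.97, 8.67 and 8.76 at P6, against 9.76, 9.77, 9.51 and 9.97 at P4 (-0.87 ± 0.12, adjusted p = 2.27e-05), and Idi1, isopentenyl diphosphate isomerase, fell by 0.48 (adjusted p = 0.0263; lost in 4 of 8 fits). Of 43 cytosolic ribosomal protein genes 5 were lower (11.6%, against 5.92% of all genes) and 0 were higher, with a median of -0.12 as deposited and -0.03 after centring. The count was 2 without P4 replicate 1, P4 replicate 3 or P6 replicate 2, and 3 without P4 replicate 4, P6 replicate 1 or P6 replicate 4 and after centring. Rplp2, of the ribosomal stalk, was at 13.80, 13.71, 13.52 and 13.64 at P6, against 14.06, 14.16, 14.13 and 14.06 at P4 (-0.44 ± 0.06, adjusted p = 7.08e-05), and Rpl8 fell by 0.41 (adjusted p = 0.00798).

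Rab GTPases and their regulators, which act in vesicle transport, had 1 higher (2.78%, close to the 2.52% of all genes) and 1 lower (2.78%, against 5.92%) of 36, with a median of -0.05 as deposited and 0.04 after centring. Rabac1, whose product PRA1 binds prenylated Rab proteins, was at 8.75, 9.10, 9.18 and 8.47 at P6, against 8.91, 8.03, 8.72 and 8.40 at P4. The groups overlapped and the difference of 0.36 did not pass the test (adjusted p = 0.645). Rab28, a small GTPase of the photoreceptor, was at 11.19, 11.48, 11.53 and 11.30 at P6, against 10.71, 10.94, 10.95 and 10.81 at P4 (0.52 ± 0.10, adjusted p = 0.000926). Rab6b, a neuronal Golgi Rab, fell by 0.44 (adjusted p = 0.0447), and its call held only without P6 replicate 1.

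Of 36 apoptosis genes, 1 was higher (2.78%) and 2 were lower (5.56%), shares close to the 2.52% and 5.92% of all genes, with a median of 0.05. Casp6, an effector caspase, was at 8.30, 8.17, 8.50 and 8.28 at P6, against 8.84, 8.85, 8.88 and 9.17 at P4 (-0.62 ± 0.16, adjusted p = 0.0125; 0.057 without P4 replicate 4). Apaf1, the scaffold of the apoptosome, fell by 0.51 (adjusted p = 0.0486), and Xiap, a caspase inhibitor, rose by 0.38 (adjusted p = 0.0297). Each of these 2 calls was lost in 5 of the 8 fits that left out 1 array. Of 30 heat shock and chaperone genes, 2 were higher (6.67%, against 2.52% of all genes) and 1 was lower (3.33%, against 5.92%). Hsp90aa1, the inducible cytosolic HSP90, rose by 0.37 (adjusted p = 0.00333). Hsp90b1, its counterpart in the endoplasmic reticulum, rose by 0.54 (adjusted p = 0.0457), a call lost in all 8 fits that left out 1 array, and Hspa4 fell by 0.34 (adjusted p = 0.0298), a call lost in 5. Of 26 immediate early genes 0 were higher and 2 were lower (7.69%, against 5.92% of all genes), both feedback phosphatases of MAP kinases. Dusp1 fell by 0.66 (adjusted p = 0.0204) and Dusp6 by 0.60 (adjusted p = 0.0496), with calls lost in 3 and 6 of the 8 fits. Egr1, a zinc finger factor induced by activity, was at 8.79, 8.37, 7.64 and 8.94 at P6, against 6.63, 7.06, 7.61 and 7.41 at P4. Its groups did not overlap, and 1.26 ± 0.40 missed the threshold (adjusted p = 0.0524). Of 27 interferon response genes 1 was lower (3.7%, against 5.92% of all genes), Ifitm2, an antiviral membrane protein (-0.79, adjusted p = 0.015; lost in 3 of 8 fits).

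**Figure D2:**
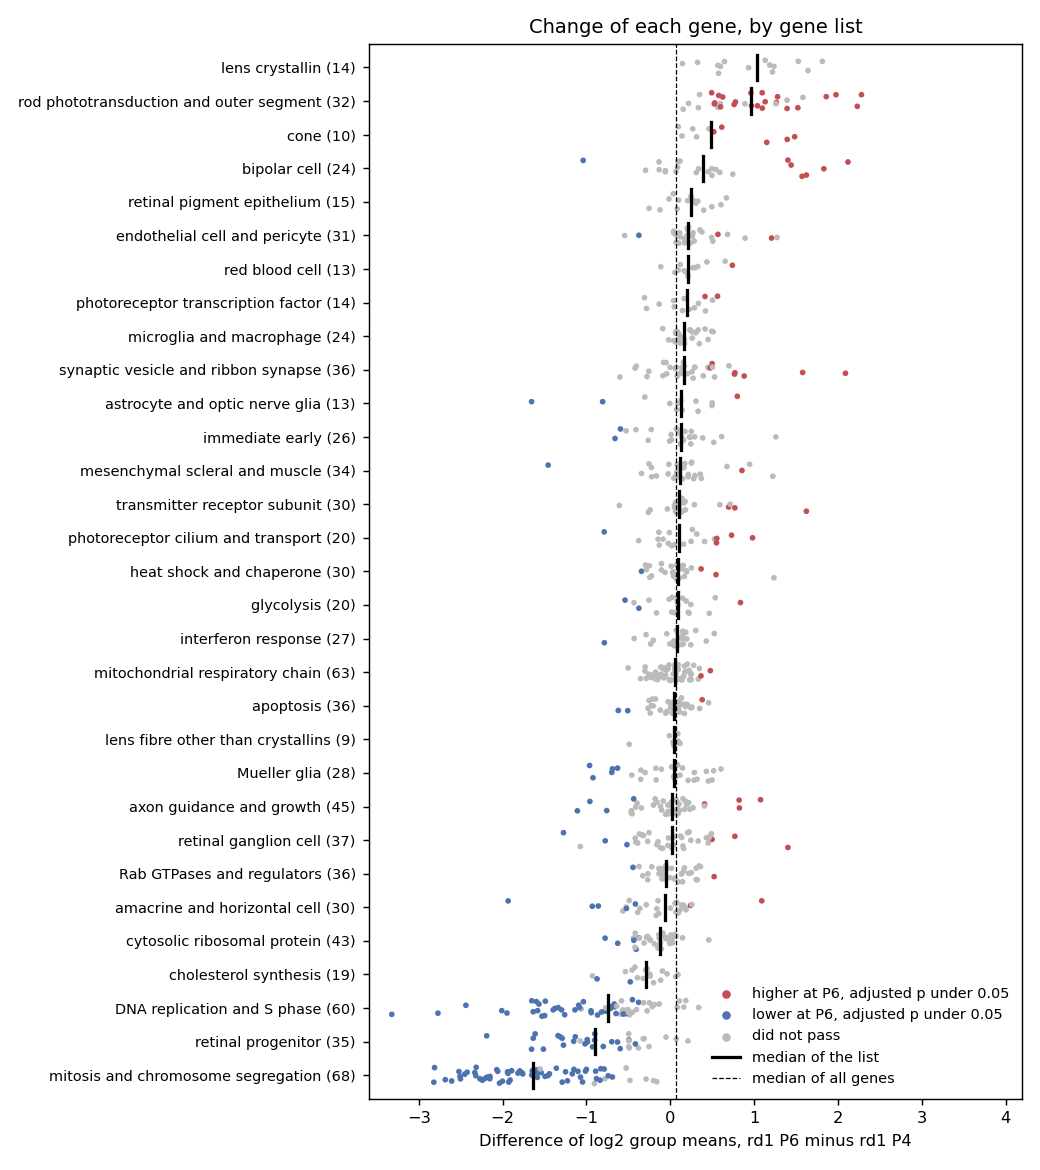
Differences P6 minus P4 in rd1 retina (log2) of the genes of each list, with 1 point per gene (red, higher; blue, lower; grey, not past the test), a bar at the median of the list and a dashed line at that of all genes. Mitosis, DNA replication and progenitor genes lie mostly below 0, with medians of -1.64, -0.74 and -0.90, and rod genes lie above 0, with a median of 0.96.

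The same interval in wt retina gave 1165 higher (5.15%) and 1535 lower (6.78%) probe sets, and the rd1 and wt intervals share no arrays. Of the 1604 calls in rd1, 1548 had the same sign in wt and 1024 were called in the same direction there, which is 63.8% of the rd1 calls and 37.9% of the wt calls. None was called in the opposite direction in wt (0 probe sets by limma). The test of the difference between the intervals called 4 probe sets (0.0177%) above 0 and 0 (0.0%) below 0, with 1418 at an unadjusted p under 0.05.

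Cenpf, a large kinetochore protein, was at 7.53, 5.96, 8.19 and 7.20 in rd1 at P6 and at 10.16, 9.37, 9.33 and 9.26 at P4, a difference of -2.32, compared to -5.06 in wt. Nusap1, a spindle microtubule protein, was at 7.05, 6.37, 7.26 and 6.69 at P6, against 9.81, 8.81, 8.53 and 8.50 at P4, a difference of -2.07, compared to -4.58 in wt. Ccnb1 differed by -2.82 in rd1 and by -5.41 in wt. The 3 mitosis genes therefore fell in both genotypes, and the fall was smaller in rd1, by 2.75 ± 0.50 for Cenpf (adjusted p = 0.0448), 2.51 ± 0.44 for Nusap1 (adjusted p = 0.0448) and 2.59 ± 0.48 for Ccnb1 (adjusted p = 0.047). Vcan, which encodes the matrix proteoglycan versican, was at 5.91, 6.25, 6.61 and 6.38 in rd1 at P6, against 5.12, 5.14, 5.52 and 4.70 at P4, a rise of 1.17 (adjusted p = 0.00033), compared to -0.44 in wt (difference 1.60 ± 0.28, adjusted p = 0.0448). The second probe sets of Nusap1 and Cenpf, dimmer at P4, gave differences between intervals of 0.54 and 0.09 that did not pass the test. The other probe sets of Vcan, also dimmer, gave 0.61 and 0.02, which did not pass the test either. The calls depended on the arrays in the fit. With the P2 arrays left out, limma called 0 probe sets, with 1680 at an unadjusted p under 0.05, and of 16 fits that each left out 1 array Nusap1 was called in 4, Cenpf in 4, Ccnb1 in 4 and Vcan in 6.

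In the lists with most calls the rd1 medians were nearer to 0 than the wt medians, while few single genes passed the test of the difference. Mitosis genes had a median of -1.64 in rd1 and -2.50 in wt, with the difference between intervals above 0 for 67 of 68 genes and called for 3, against 51.8% above 0 over all genes. Rod genes had a median of 0.96 in rd1 and 1.33 in wt, with the difference above 0 for 1 of 32 genes and called for 0. Bipolar genes had medians of 0.39 in rd1 and 0.90 in wt. Replication and progenitor genes were closer, at -0.74 and -0.90 in rd1, against -0.91 and -1.04 in wt. A smaller rd1 median was not particular to these lists. Respiratory chain genes had medians of 0.05 in rd1 and 0.26 in wt, with the difference above 0 for 7 of 63 genes. Lens crystallins had 1.03 in rd1 and 1.81 in wt, with the difference above 0 for 0 of 14. Some lists went the other way, such as pigment epithelium genes (0.25 in rd1, 0.13 in wt) and red blood cell genes (0.21 and 0.09). Of the rod genes that did not pass the test in rd1, Prph2 differed by 0.89, compared to 3.99 in wt, and Gnat1 by 1.58, compared to 3.0 in wt. The difference between intervals did not pass the test for either.

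**Figure D3:**
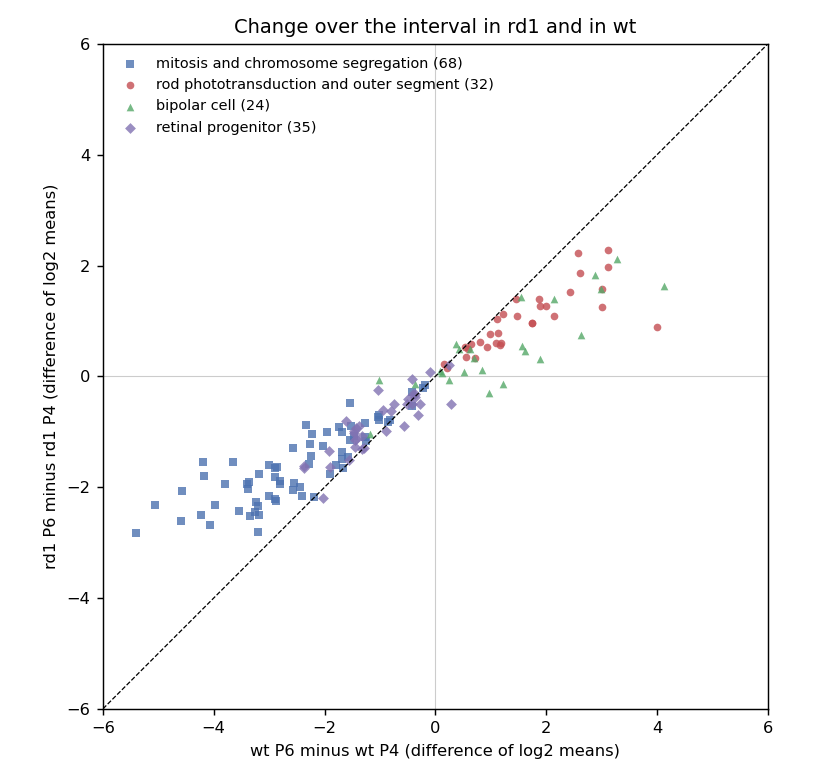
Difference P6 minus P4 (log2) in rd1 retina (vertical axis) and in wt retina (horizontal axis) of the genes of 4 lists, with 1 point per gene and a dashed line where both are equal. Points of mitosis genes lie above the line for 67 of 68 genes, and those of rod genes below it for 31 of 32.

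Set among the 4 ages of rd1 retina, the interval lay within courses that ran in 1 direction for the main lists. The P2 values stand here as labelled, although Pde6b goes against the labels of some P2 arrays. Mean levels of rod genes were 7.49 at P2 and 11.03 at P8, on either side of the values at P4 and P6 given above. Mitosis genes were at 9.59 at P2 and 5.66 at P8, replication genes at 9.15 and 6.95, and progenitor genes at 9.98 and 8.04. Cone genes were at 6.92 at P2 and 8.70 at P8. Bipolar genes were at 6.30 at P2 and 8.11 at P8, and their values at P4 lay close to those at P2.

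**Figure D4:**
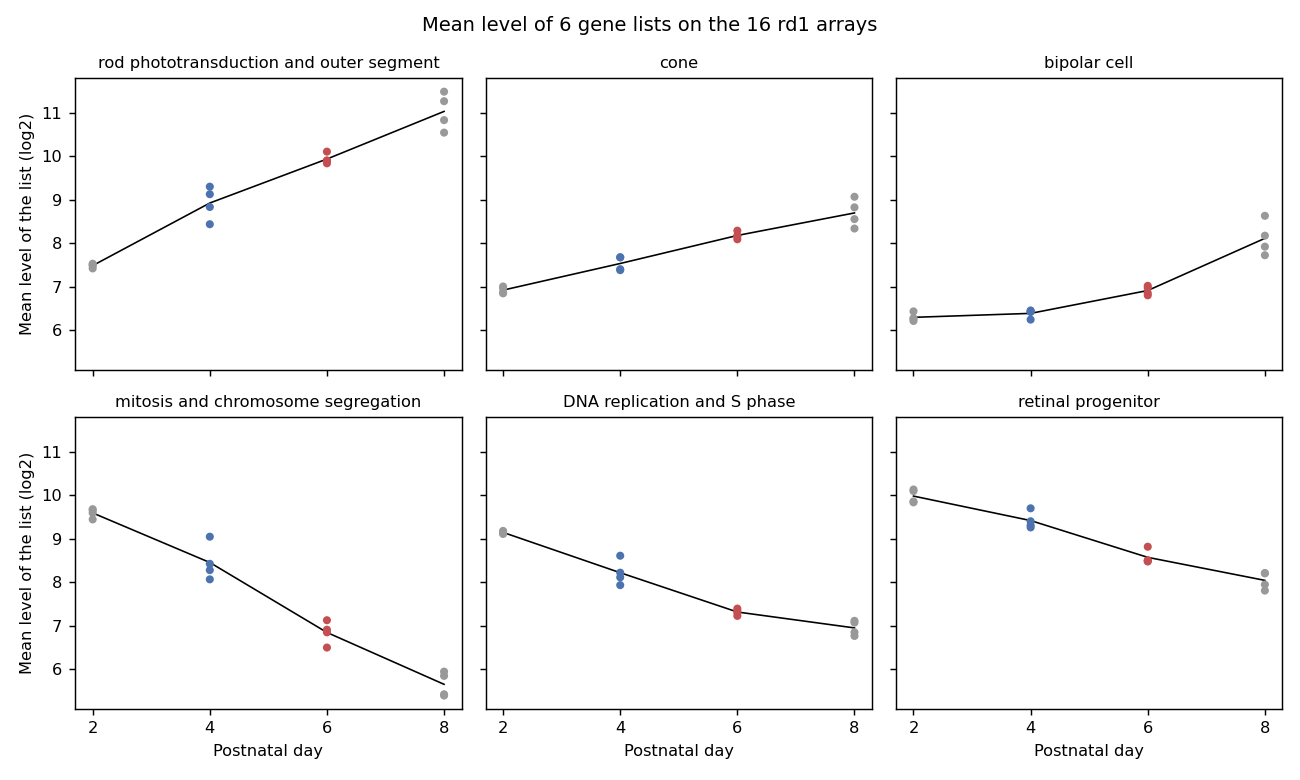
Mean log2 level of the genes of 6 lists on each rd1 array at P2, P4, P6 and P8, with 1 point per array and lines through the group means (P4 blue, P6 red, other ages grey). Mitosis, replication and progenitor genes are lower and rod, cone and bipolar genes are higher at P8 than at P2.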

How the data were processed

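Total RNA of pooled retinas, with runts left out of the study, was hybridised to Affymetrix MOE430A arrays, 4 in each of 8 groups. The authors made the log2 values by Robust Multichip Average and deposited them in 1 table; no software version is stated. A table of the authors' own fold changes and p-values, rd1 compared to wt, was not used. After 64 array controls were left out, 22626 probe sets were tested, of which 20390 had 1 gene symbol (10 through the study's gene table), 691 several and 1545 none. The values of all 32 arrays entered a limma 3.58.1 model (R 4.3.3) of the 8 group means, which left 24 residual degrees of freedom, with an intensity trend and moderated two-sided tests, Benjamini-Hochberg adjusted over all probe sets. Standard errors are limma's. The code was tested on simulated data. Array number, 4 a group, limits the precision.

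Each gene was represented by its brightest probe set. Members and lists were chosen with earlier results of these data known. Genes named were the largest changes called with no overlap of groups and the higher mean above the Bacillus controls, up to 4 members of each list with the smallest p, its brightest members, Pde6b and Rabac1, and others marked where they stand. Lists share some genes. The values of 2 genes are left out of the text, although both are in the counts and lists. Alternatives varied the samples, variance moderation, array weights, normalization, dim probe sets, fold threshold, replicate block and the probe sets of a gene; the 18S covariate and the fit without P4 replicate 1 and the P2 arrays were chosen after seeing the data.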

Additional observations from a re-analysis of the deposited data

Results flagged for a closer look

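In 14 of 252 groups of 4 arrays checked, 1 array lay far from the other 3; chance gives about 1 in 20. At P6 replicate 2 was the array apart for Gsg1 (8.49, others 7.52 to 7.65), Gnb3 (11.99, others 11.65 to 11.68), Cabp4 (8.24, others 6.72 to 6.78) and Rrm2 on its brightest probe set (6.84, others 8.05 to 8.28). At P6 replicate 1 was apart for Nrl (13.15, others 13.35 to 13.38) and Cdh11 (9.94, others 9.46 to 9.54).

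At P4 replicate 1 was apart for Cenpf (10.16, others 9.26 to 9.37), Nek2 (5.57, others 5.36 to 5.37), Angpt2 (5.18, others 5.48 to 5.52), Prph2 (3.55, others 5.85 to 6.21), and the brightest probe sets of Vcam1 (5.94, others 6.57 to 6.64) and Msn (9.74, others 9.22 to 9.29). Replicate 2 at P4 was apart for S100b (4.70, others 5.50 to 5.61) and replicate 4 for Casp6 (9.17, others 8.84 to 8.88).

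The change between P4 and P6 differed between rd1 and wt for 4 probe sets by limma's test of the difference, with values, rd1 minus wt, of 2.75 for Cenpf, 2.51 for Nusap1, 2.59 for Ccnb1 and 1.60 for Vcan.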

How the results depend on the processing

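Counts higher and lower at P6 in rd1, 494 and 1110 as reported, were 231 and 644 with the 16 rd1 arrays only, 271 and 686 with only the 8 arrays of the contrast, 1825 and 2448 with array quality weights, 915 and 739 after median centring, and 19 and 70 when tested against a fold of 1.5 (limma's treat). Without the 8 arrays of P2 the counts were 577 and 1271, and with the 18S covariate they were 600 and 1228. Leaving out each array in turn gave 279 to 760 higher and 641 to 1410 lower. For the difference between the intervals, 4 higher and 0 lower as reported, the counts were 174 and 160 with array weights, 1 and 1 with the arrays of the contrast only, 2 and 2 without P4 replicate 1 and the P2 arrays, and 0 higher without an intensity trend, after quantile normalization, with the replicate block, against a fold of 1.5 or without the P2 arrays; leaving out each array gave 0 to 10 higher and 0 to 2 lower. The causes were not tested.

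Same-numbered arrays of rd1 deviated from their group means with correlations of 0.16, -0.31, -0.15 and -0.13, so the numbers were not taken to pair samples; with the replicate block 578 were higher and 1178 lower. Of 107 called probe sets of named genes, 0 of 2247 alternative values reversed and 1972 kept their call; 275 lost it, of which 73 were against a fold of 1.5 and 113 on leaving out 1 array. Of 320 alternative list values 28 moved beyond the spread between arrays. Where a group mean lay within the range of the Bacillus controls, the size of a difference is uncertain. Where neither group mean was above that range (3882 of 12403 genes), its direction is uncertain too.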
